A study of Mus musculus with 27 samples.

Results

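The 36 genes described here encode parts of the heart muscle sarcomere, its Z-disc and the structures that anchor it, and they were taken from the count table by their symbols. All 36 were found, with 1 row each, among 27304 genes, and all 36 had enough counts to be tested in every comparison. They are grouped by role into 8 thin filament genes, 6 genes of the thick filament, titin and the M-band, 11 Z-disc genes, 6 genes of intermediate filaments, costameres and intercalated discs, and 5 genes of sarcomere assembly, turnover and signalling.

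A sarcomere is the contractile unit of striated muscle, in which thick myosin filaments pull on thin actin filaments anchored at the Z-discs. The troponin complex and tropomyosin switch the thin filament on with calcium, titin spans from Z-disc to M-band, and desmin filaments tie neighbouring Z-discs to each other and to the cell membrane. After a coronary occlusion heart muscle cells in the infarct die and a scar forms, so transcripts of these genes are commonly read as a measure of the muscle left in a piece of tissue.

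RNA was measured by bulk sequencing 7 days after myocardial infarction (MI) in male mice of the C57BL/6J strain that lack apolipoprotein E (ApoE-/-), and all of them ate a western diet for 4 weeks first. In the chronic kidney disease (CKD) group, adenine, which damages the kidney, was then added to that diet at 0.3% for 10 days and at 0.15% for 11 days, of which 4 preceded and 7 followed the MI. Control mice stayed on the western diet without adenine and also had an MI, so no group was free of infarction, of the western diet or of the Apoe mutation. Libraries came from infarct tissue of 7 CKD and 6 control mice and from remote myocardium of 8 CKD and 6 control mice, in all 27 libraries of 14 mice, 13 of which gave both regions.

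Total counts per library were 14255456 to 42566498, and levels are given as CPM, the count relative to a library total scaled for composition. Several libraries stood apart from their group. For mouse 9179 the remote sample has CKD in its title and control in its treatment label; it was counted as CKD, like the infarct library of that mouse. That infarct library had a summed level of 6 fibroblast and scar markers (Col1a1, Col3a1, Postn, Pdgfra, Dcn and Fn1) of 797 CPM, below all 14 remote libraries, while the other CKD infarct libraries had 5536 (mouse 9172) to 26812 CPM and the control infarct libraries 22568 to 46438 CPM. The remote library of control mouse 9180 had 11665 CPM, against 1024 to 3711 CPM in the other control remote libraries and 881 to 1676 CPM in CKD remote libraries. A score of 12 heart muscle genes outside the sarcomere (mean log2 CPM) was 11.11 in the infarct library of CKD mouse 9179, 10.82 in that of CKD mouse 9172 and 9.23 to 10.09 in the other CKD infarcts, and 5.79 in the infarct library of control mouse 9171, against 7.04 to 9.18 in the other control infarcts. Apoe itself gave 9.78 to 33.8 CPM in infarct and 13.1 to 26.5 CPM in remote libraries, and whether these counts come from the mutated gene cannot be read from a table per gene.

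The 36 genes together took 4.00% to 9.51% of all counts in CKD infarct tissue (median 7.55%), 1.05% to 4.93% in control infarct tissue (median 4.00%), 7.74% to 9.88% in CKD remote myocardium (median 9.15%) and 6.96% to 8.46% in control remote myocardium (median 7.98%). The share was lower in the infarct than in the remote library in 6 of 7 CKD hearts, all but mouse 9179, and in 6 of 6 control hearts. The 2 groups of infarct libraries overlapped only through CKD mouse 9175, at 4.00%. The means were 7.22 ± 1.85% in CKD infarcts, 3.59 ± 1.49% in control infarcts, 9.02 ± 0.75% in CKD remote and 7.87 ± 0.54% in control remote myocardium (SD; n = 7, 6, 8 and 6). In bulk tissue, fewer muscle cells and less RNA per muscle cell cannot be told apart.

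**Figure D1:**
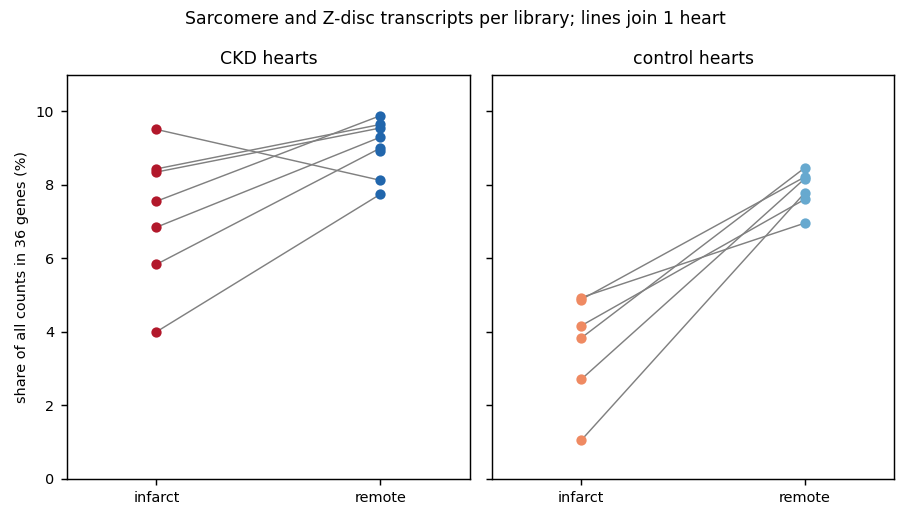
Share of all counts (%) in the 36 sarcomere and Z-disc genes, with CKD hearts left and control hearts right; each point is 1 library and lines join the infarct and remote library of 1 heart. CKD infarct libraries reach from 4.00% to 9.51%, while those of control hearts sit between 1.05% and 4.93%, below all control remote libraries.

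The first question was how the infarct differs from remote muscle of the same hearts 7 days after MI. In CKD hearts 4 of the 36 genes fell and 1 rose in infarct tissue, while in control hearts 32 fell and none rose (edgeR quasi-likelihood F test, Benjamini-Hochberg adjusted p under 0.05 over 14770 genes). This fit, used for each gene below, compared group means and did not pair the 2 regions of a heart. Over all genes tested, 20.2% were lower and 24.7% higher in the infarct of CKD hearts (45.0% in either direction), and 33.2% lower and 30.7% higher in that of control hearts (63.9% in either direction). The median log2 fold change of the 36 genes was -0.51 in CKD hearts, where the median of all genes was -0.01, and -1.57 in control hearts, where it was also -0.01. Before adjustment 14 genes had a p under 0.05 in CKD hearts, against 54.2% of all genes, and 32 in control hearts, against 67.3%. Infarct and remote values overlapped for all 36 genes in CKD hearts, where 1.07% of all genes were lower and 1.04% higher without overlap. In contrast, 25 of 36 genes were lower in every control infarct than in every control remote library, a pattern seen in 18.9% of all genes. None was higher without overlap, against 14.6% of all. With mouse as a block, which pairs the regions, 9 genes fell and 1 rose in CKD hearts (48.8% of all genes changed). In that fit 32 fell and 0 rose in control hearts (66.1%).

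**Figure D2:**
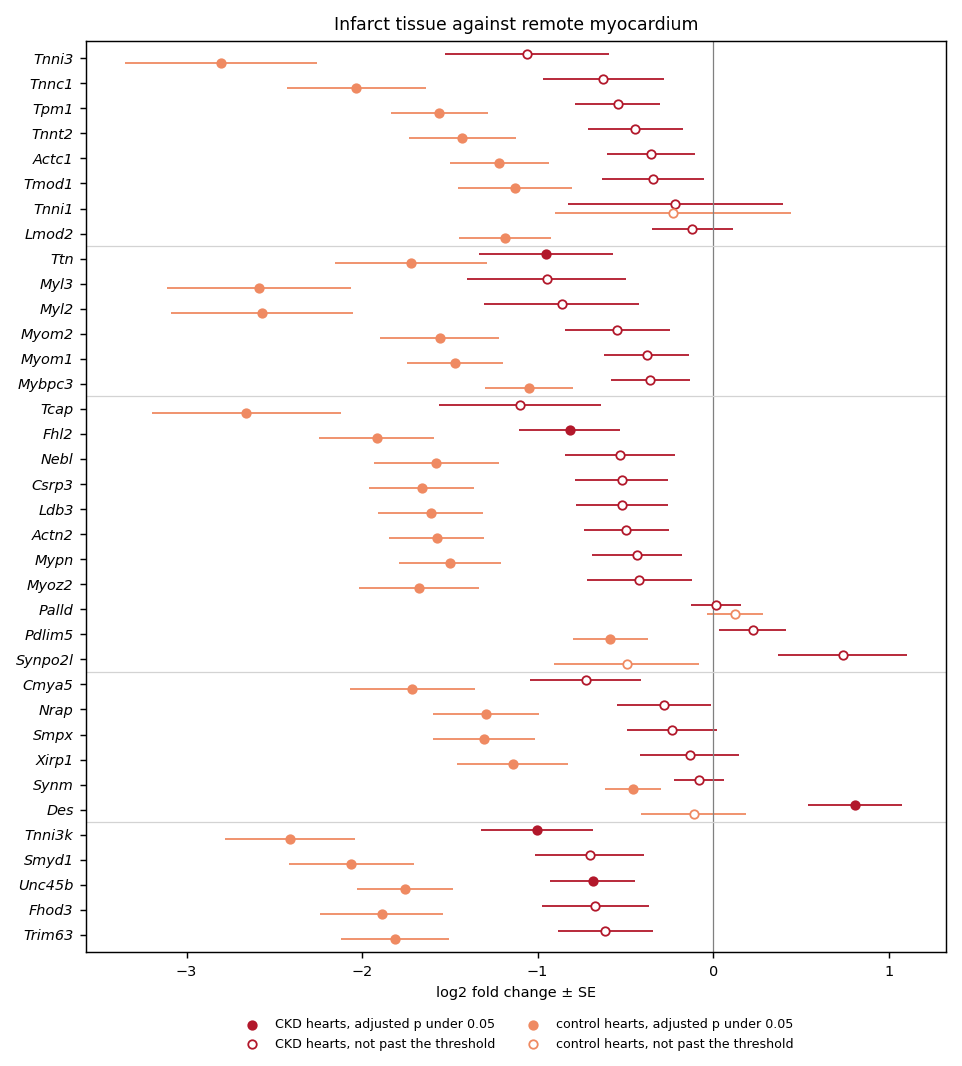
Log2 fold change ± SE of infarct over remote tissue for each gene, in CKD hearts (dark red, upper mark of a pair) and control hearts (orange, lower mark), in blocks by role; filled marks passed the adjusted p of 0.05. CKD values lie between -1.10 (Tcap) and 0.81 (Des), control values between -2.80 (Tnni3) and 0.12 (Palld).

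Of the 8 thin filament genes, 0 fell in CKD infarcts and 7 in control infarcts. Tnni3 encodes cardiac troponin I, the inhibitory subunit of the complex. It had 1089.9 to 10143 CPM (median 1839) in CKD infarcts, 77.0 to 1376 CPM (median 957) in control infarcts, 6191 to 8997 CPM (median 6848) in CKD remote and 2811 to 6744 CPM (median 6408) in control remote myocardium. Every control infarct library lay below every remote library, while 1 CKD infarct, that of mouse 9179, was above the highest remote library. The log2 fold change of infarct over remote tissue was -1.06 ± 0.47 in CKD hearts (SE, adjusted p = 0.0644) and -2.80 ± 0.55 in control hearts (adjusted p = 1.18e-04), the most negative of the 36 in controls. Tnnc1, the calcium-binding subunit, was at -2.03 ± 0.40 in control hearts (adjusted p = 1.15e-04), and Tpm1, alpha-tropomyosin, at -0.54 ± 0.24 in CKD (adjusted p = 0.0681) and -1.56 ± 0.28 in control hearts (adjusted p = 4.78e-05). Tnnt2, the troponin subunit that binds tropomyosin, was at -0.44 ± 0.27 in CKD (adjusted p = 0.178) and -1.43 ± 0.31 in control hearts (adjusted p = 2.86e-04). The other thin filament genes that fell in control infarcts were Actc1, cardiac alpha-actin, Tmod1, which caps the free filament end, and Lmod2, which acts at that end on filament length.

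The exception among thin filament genes was Tnni1, the troponin I form of slow skeletal muscle that the fetal heart uses before Tnni3. It was near the floor of detection, with 11 to 32 counts per library in CKD infarcts, 18 to 40 in control infarcts, 2 to 65 in CKD remote and 1 to 80 in control remote libraries. Its groups overlapped in every comparison, and its region differences were -0.22 ± 0.61 in CKD (adjusted p = 0.788) and -0.23 ± 0.67 in control hearts (adjusted p = 0.774).

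Of the 6 genes of the thick filament, titin and the M-band, 1 fell in CKD and all 6 in control infarcts. The gene that fell in both was Ttn, which encodes titin, with 884 to 4084 CPM (median 1868) in CKD infarcts and 149 to 2036 CPM (median 1178) in control infarcts. Remote libraries had 3253 to 5849.8 CPM (median 4247) in CKD and 1934 to 5236 CPM (median 3614) in control hearts. The highest infarct libraries reached into the range of the remote ones in both diets, through CKD mouse 9179 and, in controls, mouse 9184. The change was -0.95 ± 0.38 in CKD (adjusted p = 0.0449) and -1.72 ± 0.43 in control hearts (adjusted p = 0.00129). The CKD value was near the threshold: leaving out any of 10 single libraries moved the adjusted p to between 0.0564 and 0.0996. Myl2, the regulatory myosin light chain of the ventricle, had 2287 to 18115 CPM (median 4351) in CKD infarcts, 181 to 2966 CPM (median 2296) in control infarcts, 9515 to 17908 CPM (median 12325) in CKD remote and 6332 to 14984 CPM (median 12185) in control remote myocardium. No control infarct reached a remote library, and its fold change was -0.86 ± 0.44 in CKD (adjusted p = 0.109) and -2.57 ± 0.52 in control hearts (adjusted p = 1.56e-04). Its partner Myl3, the essential light chain, followed with -0.95 ± 0.45 in CKD (adjusted p = 0.0854) and -2.59 ± 0.53 in control hearts (adjusted p = 1.73e-04). Mybpc3, the myosin-binding protein, changed least in this group in controls (-1.05 ± 0.25, adjusted p = 8.42e-04), and the M-band gene Myom1 was at -1.47 ± 0.27 (adjusted p = 7.85e-05).

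Of the 11 Z-disc genes, 1 fell in CKD and 9 in control infarcts. Fhl2, a LIM-domain protein that binds titin and the Z-disc, fell in both, with -0.82 ± 0.29 in CKD (adjusted p = 0.0237) and -1.92 ± 0.33 in control hearts (adjusted p = 3.46e-05). Its levels were 612 to 1927 CPM (median 1035) in CKD infarcts, 118 to 576 CPM (median 467) in control infarcts, 1693 to 2376 CPM (median 1936) in CKD remote and 897 to 2026 CPM (median 1624) in control remote myocardium. CKD infarct and remote libraries overlapped, and control ones did not. Without the infarct library of CKD mouse 9174, 9175 or 9178 the CKD value missed the threshold (adjusted p = 0.0571, 0.0598 and 0.0573). Tcap, telethonin, which joins titin ends at the Z-disc, was at -1.10 ± 0.46 in CKD (adjusted p = 0.0532) and -2.66 ± 0.54 in control hearts (adjusted p = 1.60e-04). Actn2, the alpha-actinin that cross-links actin there, was at -1.58 ± 0.27 in control hearts (adjusted p = 4.02e-05), and Csrp3, Ldb3, Myoz2, Nebl and Mypn, all Z-disc partners of actinin, actin or titin, also fell, with Myoz2 lowest at -1.67.

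The other Z-disc genes stood apart. Palld, palladin, an actin-binding scaffold also found in cells other than muscle, had 163 to 340.1 CPM (median 196) in CKD infarcts, 157 to 269 CPM (median 211) in control infarcts, 195 to 257 CPM (median 212) in CKD remote and 146 to 243 CPM (median 198) in control remote myocardium. The 4 ranges overlapped throughout, with differences of 0.02 ± 0.14 in CKD (adjusted p = 0.930) and 0.12 ± 0.16 in control hearts (adjusted p = 0.505). Synpo2l, an actin-associated Z-disc protein, was at 0.74 ± 0.37 in CKD (adjusted p = 0.100) and -0.49 ± 0.41 in control hearts (adjusted p = 0.297). Its value in the infarct of CKD mouse 9176, 699 CPM, stood far above the next CKD infarct. Pdlim5, a PDZ and LIM protein that binds actinin, was at 0.22 ± 0.19 in CKD infarcts (adjusted p = 0.339) and fell in control infarcts (-0.59 ± 0.22, adjusted p = 0.0200).

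Among the 6 genes of intermediate filaments, costameres and intercalated discs, 1 rose and none fell in CKD infarcts, and 5 fell in control infarcts. The gene that rose was Des, desmin, the muscle intermediate filament, which is also made by smooth muscle cells. It had 2684 to 8731 CPM (median 4295) in CKD infarcts against 2400.0 to 2975 CPM (median 2781) in CKD remote myocardium, and 1001 to 5267 CPM (median 2778) in control infarcts against 2484 to 4886 CPM (median 2591) in control remote myocardium. Within each heart, Des was higher in the infarct in 7 of 7 CKD and 4 of 6 control mice. The fold change was 0.81 ± 0.27 in CKD (adjusted p = 0.0179) and -0.11 ± 0.30 in control hearts (adjusted p = 0.756), and the difference between them was 0.92 ± 0.40 (adjusted p = 0.219). Without the infarct of CKD mouse 9176, which had the highest level, the CKD value was 0.61 with an adjusted p = 0.0618. Synm, synemin, which pairs with desmin, was at -0.08 ± 0.14 in CKD (adjusted p = 0.662) and -0.46 ± 0.16 in control hearts (adjusted p = 0.0152). Cmya5, myospryn, an anchoring protein at the costamere, was lower in the infarct of 13 of 13 hearts, with -0.73 ± 0.32 in CKD (adjusted p = 0.0616) and -1.71 ± 0.36 in control hearts (adjusted p = 2.27e-04). The small muscle protein Smpx (control -1.31 ± 0.29, adjusted p = 4.22e-04) and the intercalated disc genes Xirp1 and Nrap also fell in controls.

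Of the 5 genes of assembly, turnover and signalling, 2 fell in CKD and all 5 in control infarcts. Tnni3k, a kinase of heart muscle that binds cardiac troponin I, had the smallest p of the 36 in both diets. It had 38.3 to 137 CPM (median 56.6) in CKD infarcts, 5.20 to 33.6 CPM (median 25.1) in control infarcts, 117 to 156 CPM (median 139) in CKD remote and 50.6 to 146 CPM (median 127) in control remote myocardium. The control groups did not overlap, and the infarct was lower in 7 of 7 CKD and 6 of 6 control hearts. The changes were -1.003 ± 0.32 in CKD (adjusted p = 0.0146) and -2.41 ± 0.37 in control hearts (adjusted p = 1.70e-05). Unc45b, a chaperone that folds myosin, was at -0.69 ± 0.24 in CKD (adjusted p = 0.0235) and -1.76 ± 0.27 in control hearts (adjusted p = 1.81e-05). Without the infarct of CKD mouse 9174, 9175 or 9178 the CKD value of Unc45b missed the threshold (adjusted p = 0.0548, 0.0609 and 0.0579). In control hearts Smyd1, a methyltransferase needed for myosin assembly, was at -2.06 ± 0.36, Trim63, a ubiquitin ligase of muscle wasting also called MuRF1, at -1.81 ± 0.31, and Fhod3, an actin-building formin, at -1.89 ± 0.35.

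**Figure D3:**
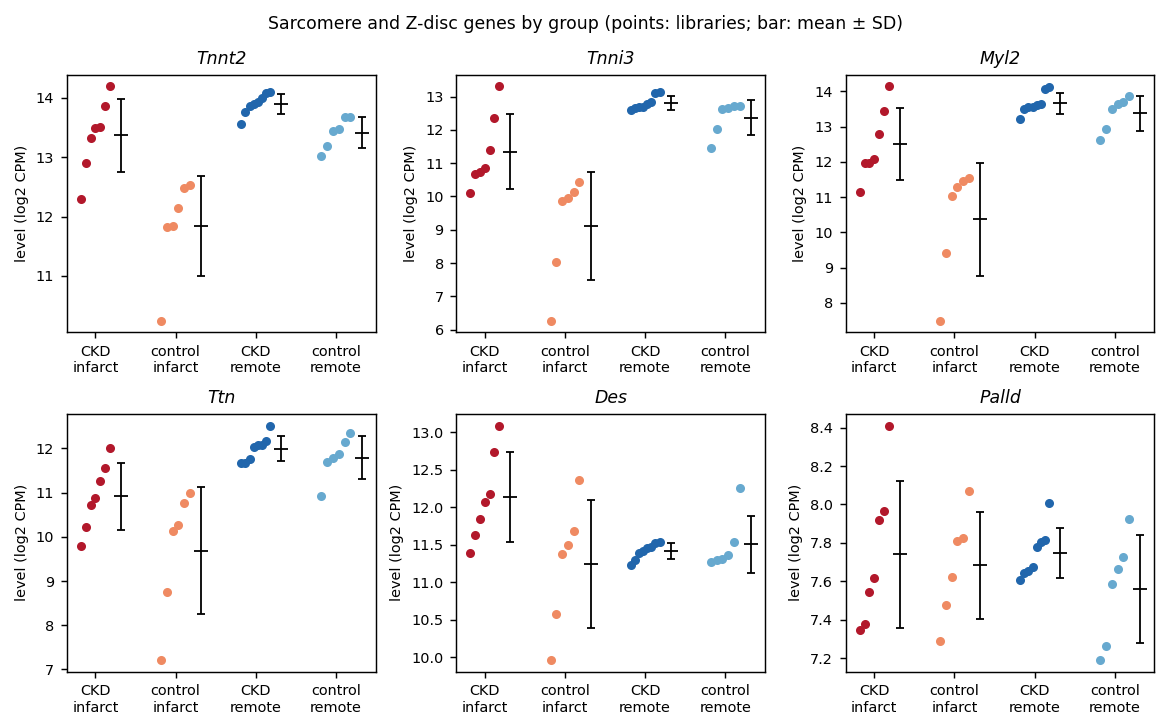
Level (log2 CPM, vertical axes start at different values) of 6 genes in each library of the 4 groups, with the mean ± SD beside the points (n = 7, 6, 8 and 6). Tnnt2, Tnni3, Myl2 and Ttn are lowest in control infarct libraries, while the 4 groups overlap for Palld and CKD infarct libraries reach the highest Des levels.

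The count in CKD hearts moved with single libraries. Leaving out the infarct libraries of CKD mice 9172 and 9179, 18 genes fell and 2 rose in CKD infarcts (median -0.70; 60.4% of all genes changed in that fit, against 45.0%), and leaving out mouse 9179 alone, 14 fell (56.9% of all genes changed). With mouse as a replicate block, which compares the 2 regions within each heart, 9 fell and 1 rose (48.8% of all genes changed), and Tnni3 (-1.52, adjusted p = 0.0204), Tcap (-1.55, adjusted p = 0.0147), Myl2 (-1.20, adjusted p = 0.0413) and Cmya5 (-0.91, adjusted p = 0.0220) were then among those that fell. In control hearts the count was 31 or 32 when any 1 library was left out. Fibroblast and scar markers moved the other way between regions, at the summed levels given above, and macrophage and leukocyte markers (5 of 5 found) had 275 to 5823 CPM in CKD infarcts, 1295 to 3097 CPM in control infarcts, 269 to 497 CPM in CKD remote and 227 to 924 CPM in control remote libraries. Endothelial markers moved with the 36 genes: all 4 were lower in infarcts of both diets, with a median of -0.57 in CKD and -0.80 in control hearts. Of 4 red cell genes, none passed in CKD infarcts (median -0.67) and all 4 were lower in control infarcts (median -1.63). The part of these cells in the fold changes was not tested. With the heart muscle score in the model, 0 of the 36 genes passed in either diet, and the median was 0.07 in CKD and -0.03 in control hearts. In that fit 2113 of all 14770 genes (14.3%) passed in CKD hearts and 0 in control hearts (1438 at an unadjusted p under 0.05). The score was 5.79 to 9.18 in control infarcts and 9.88 to 11.10 in control remote libraries, so region and score are hard to separate there.

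Counted heart by heart, the difference between infarct and remote tissue varied widely. In CKD mice 9174, 9175, 9177 and 9178 the infarct was lower for 33, 34, 32 and 31 of 36 genes, in mice 9172 and 9176 for 23 and 24, and in mouse 9179 for 14, so that 22 were higher. In control mice it was lower for 32 to 36 of 36 genes. The median difference ran from -1.18 to 0.10 on the log2 scale over CKD hearts and from -3.60 (mouse 9171) to -0.55 (mouse 9180) over control hearts. Ttn, Cmya5 and Tnni3k were lower in the infarct of all 13 hearts, and 21 further genes were lower in 12, including all 6 control hearts.

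Set relative to the score of 12 heart muscle genes outside the sarcomere, which itself was 9.99 ± 0.73 in CKD infarcts, 8.11 ± 1.38 in control infarcts, 11.01 ± 0.09 in CKD remote and 10.78 ± 0.46 in control remote libraries (SD), 30 genes in CKD and 32 in control hearts had a higher value in the infarct. Since the score was lower in the infarct, a gene whose level did not change also has a higher value on this scale. The share of all genes that do was not computed. Over those 12 genes the median fold change was -0.85 in CKD and -2.38 in control hearts, beside -0.51 and -1.57 for the 36 genes. Tnni3 stood at -0.44 in CKD and -0.59 in control hearts relative to the score, Myl3 at -0.17 and -0.54, Tcap at -0.47 and -0.35, and Myl2 at -0.13 and -0.34 (group means, with no test). Infarct and remote values overlapped for each of these 4 in both diets. With the score as a covariate their fold changes in control hearts were above 0 (Tnni3 0.086, Myl3 0.23, Tcap 0.049 and Myl2 0.15). The score did not overlap between the regions of control hearts, so that fit separates region from score poorly there. Nothing is read from these signs. At the other end relative to the score, Palld was at 1.02 in CKD and 2.79 in control hearts and Des at 1.75 and 2.41. Synm was at 0.94 and 2.19, Synpo2l at 1.56 and 2.10, and Pdlim5 at 1.19 and 2.02. Palld itself changed little between regions, as given above, so its value here mainly reflects the lower score. Tnni1, at 1.46 and 3.27, rests on the low counts given above.

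**Figure D4:**
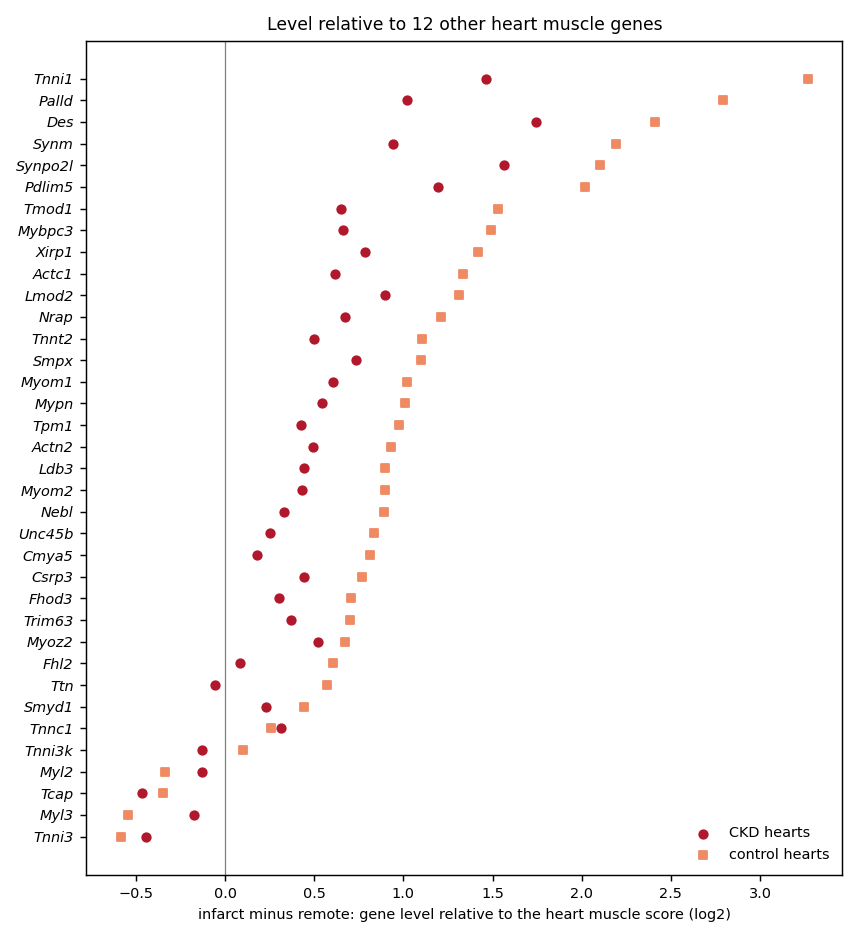
Difference between infarct and remote tissue in the level of each gene relative to the heart muscle score (log2; 0 means the gene moved as the score did), as group means in CKD hearts (circles) and control hearts (squares). Tnni3, Myl3, Tcap and Myl2 lie below 0 in both diets, and Tnni1, Palld, Des and Synm lie farthest above it in control hearts.

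The ratios of 5 pairs of partner genes describe their proportions. The log2 ratio of Tnni3 to Tnnt2 in CPM was -2.02 ± 0.67 in CKD infarcts, -2.73 ± 1.01 in control infarcts, -1.08 ± 0.19 in CKD remote and -1.05 ± 0.29 in control remote myocardium (SD; n = 7, 6, 8 and 6). That of Tnnc1 to Tnnt2 was -1.73 ± 0.26 in CKD infarcts, -2.29 ± 0.71 in control infarcts, -1.55 ± 0.27 in CKD remote and -1.45 ± 0.33 in control remote myocardium, so it was lower mainly in control infarcts. The ratio of Myl2 to Mybpc3 was 0.73 ± 0.86 in CKD infarcts, -0.35 ± 0.94 in control infarcts, 1.52 ± 0.30 in CKD remote and 1.48 ± 0.49 in control remote myocardium. That of Tcap to Ttn was -0.93 ± 0.54 in CKD infarcts, -1.96 ± 0.49 in control infarcts, -0.52 ± 0.50 in CKD remote and -1.05 ± 0.38 in control remote myocardium, with a higher mean in CKD in both regions. The log2 ratio of Des to Actn2 was 1.45 ± 0.68 in CKD infarcts, 1.94 ± 0.61 in control infarcts, 0.20 ± 0.11 in CKD remote and 0.47 ± 0.59 in control remote myocardium. Ratios of CPM hold no correction for transcript length, so only their change between groups can be read, and these pairs were picked after the levels had been seen, with no test.

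The ratio of Tnni1 to Tnni3, the fetal to the adult troponin I gene, was tested in each comparison. Its log2 value (with 0.5 counts added) was -12.99 to -10.15 in CKD infarcts (median -10.82), -10.76 to -6.54 in control infarcts (median -9.88), -16.15 to -10.96 in CKD remote (median -13.57) and -16.12 to -10.96 in control remote myocardium (median -12.95). It was higher in the infarct in 7 of 7 CKD hearts, by 1.98 (exact two-sided sign-flip permutation p = 0.0156, the smallest these 7 hearts can give; adjusted p = 0.0481 over the 5 comparisons). It was higher in 6 of 6 control hearts, by 4.01 (exact permutation p = 0.0313, again the smallest possible; adjusted p = 0.0521). In infarcts the CKD minus control difference was -2.16 (exact two-sided permutation p = 0.0192, adjusted p = 0.0481), and in remote myocardium it differed by -0.18 (exact permutation p = 0.871, adjusted p = 0.871). The change from remote to infarct tissue within a heart differed by -2.03 between CKD and control hearts (over the 13 hearts with both regions, exact permutation p = 0.0612, adjusted p = 0.0765). Both calls at 0.0481 were lost (adjusted p = 0.0521 to 0.0649) without the infarct library of CKD mouse 9172, 9174, 9175, 9176, 9178 or 9179. The remote library of the same mice, left out, ended the call between regions (adjusted p = 0.0521), and the infarct library of control mouse 9170, 9171 or 9183 that between infarcts (adjusted p = 0.0505 to 0.104). With 1 CKD heart left out 6 remain, and the smallest sign-flip p they can give is 0.0313. The 5 comparisons are also adjusted together. Between infarcts the difference grew without CKD mouse 9174, 9175, 9176 or 9178 (-2.36, -2.35, -2.28 and -2.25). It shrank without CKD mouse 9172 or 9179 (-1.885 and -1.93). A lost call therefore does not by itself show reliance on that library. Tnni1 itself gave at most 80 counts in a library, was lower in the infarct in 3 of 7 CKD and 2 of 6 control hearts and passed no test. Its denominator, Tnni3, was lower in the infarct in 6 of 7 CKD and 6 of 6 control hearts. In CKD mouse 9179 Tnni3 was higher in the infarct, by 0.52 log2 units, and the ratio was higher too. This was the infarct library with the low scar marker level given above. The part of each gene in the change of the ratio was not tested.

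The promoters of these genes can be set beside their levels, since most of the 36 genes moved together. Shown are 300 bases, 250 before to 50 from the annotated start, from the RefSeq table on GRCm38.p6, which is not the build named for the counts. Tnni3 and Tnni1 are printed as the troponin I pair, Tnni3k and again Tnni1 as the genes with the smallest and the largest p in control infarct over remote tissue, and Actc1 and Ttn, chosen after the search, as examples of a CArG box and a MEF2 site. Capitals mark motif matches on either strand.
Tnni3, chr7:4522479-4522778, minus strand: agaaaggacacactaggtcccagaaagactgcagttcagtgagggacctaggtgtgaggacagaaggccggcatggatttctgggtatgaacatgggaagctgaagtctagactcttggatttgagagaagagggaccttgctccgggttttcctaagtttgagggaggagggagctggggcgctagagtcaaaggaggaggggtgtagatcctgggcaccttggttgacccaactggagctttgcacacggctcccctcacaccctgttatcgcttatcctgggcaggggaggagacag
Tnni1, chr1:135799171-135799470, plus strand: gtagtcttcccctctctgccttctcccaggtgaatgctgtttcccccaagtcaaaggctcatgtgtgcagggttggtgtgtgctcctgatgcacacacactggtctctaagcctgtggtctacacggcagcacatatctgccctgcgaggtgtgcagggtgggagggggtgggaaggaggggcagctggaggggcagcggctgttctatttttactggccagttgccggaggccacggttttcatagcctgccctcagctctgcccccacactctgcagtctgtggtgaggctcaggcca
Tnni3k, chr3:155055358-155055657, minus strand: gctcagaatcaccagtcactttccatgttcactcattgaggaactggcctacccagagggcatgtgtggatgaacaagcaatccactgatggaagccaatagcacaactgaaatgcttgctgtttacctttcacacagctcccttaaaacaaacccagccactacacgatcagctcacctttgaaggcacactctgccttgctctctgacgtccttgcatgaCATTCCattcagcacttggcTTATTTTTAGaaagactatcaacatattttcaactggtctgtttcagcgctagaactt
Actc1, chr2:114052826-114053125, minus strand: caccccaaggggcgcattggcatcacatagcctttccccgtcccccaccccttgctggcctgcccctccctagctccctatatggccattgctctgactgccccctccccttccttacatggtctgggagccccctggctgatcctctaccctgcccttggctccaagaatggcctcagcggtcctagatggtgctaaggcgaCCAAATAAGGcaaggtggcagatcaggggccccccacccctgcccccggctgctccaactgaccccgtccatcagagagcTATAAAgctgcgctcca
Ttn, chr2:76982498-76982797, minus strand: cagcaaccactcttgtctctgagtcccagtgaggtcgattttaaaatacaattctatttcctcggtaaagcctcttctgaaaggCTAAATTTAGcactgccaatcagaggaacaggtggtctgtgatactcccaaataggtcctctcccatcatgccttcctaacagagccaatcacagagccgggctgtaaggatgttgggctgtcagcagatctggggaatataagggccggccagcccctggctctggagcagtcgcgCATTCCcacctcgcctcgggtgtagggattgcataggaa

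The searched motifs were the MEF2 site and the CArG box of serum response factor, both by their usual 10-base consensus, and the GATA site AGATAA, the MCAT box CATTCC and the TATA box TATAAA. Each was sought on both strands, and A- and T-rich sites can overlap. The table held 45 promoters of 32 of the 36 genes, with none for Myom2, Tcap, Xirp1 and Fhod3. A MEF2 site lay in 6 of 45 (13.3%), against 1.86% of all 32851 promoters, and a CArG box in 8 of 45 (17.8%), against 1.63%. The GATA site was in 17.8% of the 45 against 11.2% of all, the MCAT box in 24.4% against 14.7%, and the TATA box in 17.8% against 13.6%. Counted from the annotated start, Actc1 holds a CArG box at -47 and the letters TATAAA at 34. Ttn holds a MEF2 site at -166 and an MCAT box at 12, and Tnni3k a MEF2 site at -8 and an MCAT box at -28. The TATAAA of Actc1 and the MCAT box of Ttn thus lie after the start. None of the searched motifs occurs in the Tnni3 and Tnni1 windows, those of the gene that fell most in control infarcts and of one that did not fall detectably. Promoters of 1 gene share sequence, so these shares are descriptions, and a match is not a bound site.

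The second question was how kidney disease changes infarct tissue. In infarcts of CKD mice 21 of the 36 genes were higher than in infarcts of control mice and none was lower, against 13.1% of all 14358 genes tested that were higher and 7.14% that were lower (20.3% in either direction). All 36 log2 fold changes were positive, with a median of 1.22 where the median of all genes was -0.02, and 30 genes had an unadjusted p under 0.05, against 40.2% of all. In 7 genes (Tnnc1, Myom1, Actn2, Fhl2, Fhod3, Smyd1 and Tnni3k) every CKD infarct lay above every control infarct, a pattern found in 5.21% of all genes; none was lower without overlap, against 1.37% of all.

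By role, all 5 assembly, turnover and signalling genes were higher in CKD infarcts, as were 8 of 11 Z-disc, 5 of 8 thin filament, 2 of 6 thick filament, titin and M-band genes, and 1 of 6 in the group of intermediate filaments, costameres and intercalated discs. Fhod3 had 88.7 to 230.3 CPM (median 166) in CKD and 16.1 to 87.3 CPM (median 62.9) in control infarcts, with no overlap, a log2 fold change of 1.47 ± 0.37 (adjusted p = 0.0345). Smyd1 had 169 to 487 CPM (median 294) in CKD and 23.3 to 158 CPM (median 119) in control infarcts, also without overlap (1.60 ± 0.42, adjusted p = 0.0345). Tnni3k was 3.07-fold higher (1.62 ± 0.43, adjusted p = 0.0345), and the myosin chaperone Unc45b (1.12 ± 0.32, adjusted p = 0.0361) and the ubiquitin ligase Trim63 (1.19 ± 0.36, adjusted p = 0.0381) were higher by less. The direction was the same for genes that build and for the gene that degrades sarcomere proteins.

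Of the Z-disc genes, Tcap had the largest fold change of the 36, 2.19 ± 0.66 (adjusted p = 0.0378), with 396 to 3585 CPM (median 649) in CKD and 33.1 to 516 CPM (median 289.7) in control infarcts. The 2 groups overlapped at the low end of the CKD range. Fhl2 was at 1.45 ± 0.40 and Actn2 at 1.23 ± 0.34 (adjusted p = 0.0345 and 0.0348). Csrp3, Ldb3, Myoz2, Mypn and Pdlim5 were also higher. Palld (0.05 ± 0.19, adjusted p = 0.842) and Synpo2l (0.79 ± 0.47, adjusted p = 0.224) did not pass, nor did Nebl.

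Of the thin filament genes, Tnnt2 had 5040.5 to 18736 CPM (median 11449) in CKD and 1215 to 5908 CPM (median 4101) in control infarcts. The lowest CKD infarct, mouse 9175, fell within the control range, and the other 6 lay above it. The fold change was 1.44 ± 0.39 (adjusted p = 0.0345). Tnni3 was 4.26-fold higher (2.09 ± 0.68, adjusted p = 0.0458), Tnnc1 3.42-fold (1.77 ± 0.50, adjusted p = 0.0354) and Tpm1 2.41-fold (1.27 ± 0.35, adjusted p = 0.0348), and Lmod2 was also called. Actc1 and Tmod1 did not pass, and Tnni1 was at 0.07 ± 0.25 (adjusted p = 0.841).

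Among thick filament, titin and M-band genes, Myom1 (1.21 ± 0.35, adjusted p = 0.0362) and Myl2 (1.92 ± 0.64, adjusted p = 0.0479) were higher in CKD infarcts. Mybpc3 (0.92 ± 0.31, adjusted p = 0.0507) and Myl3 (1.92 ± 0.66, adjusted p = 0.0544) lay just past the threshold, and Ttn was at 0.91 ± 0.52 (adjusted p = 0.203). Smpx was the 1 gene called among intermediate filament, costamere and intercalated disc genes (1.24 ± 0.39, adjusted p = 0.0403), with Cmya5 at 1.23 ± 0.41 (adjusted p = 0.0504). Des was at 0.79 ± 0.39 (adjusted p = 0.147) and Synm at 0.22 ± 0.18 (adjusted p = 0.377).

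**Figure D5:**
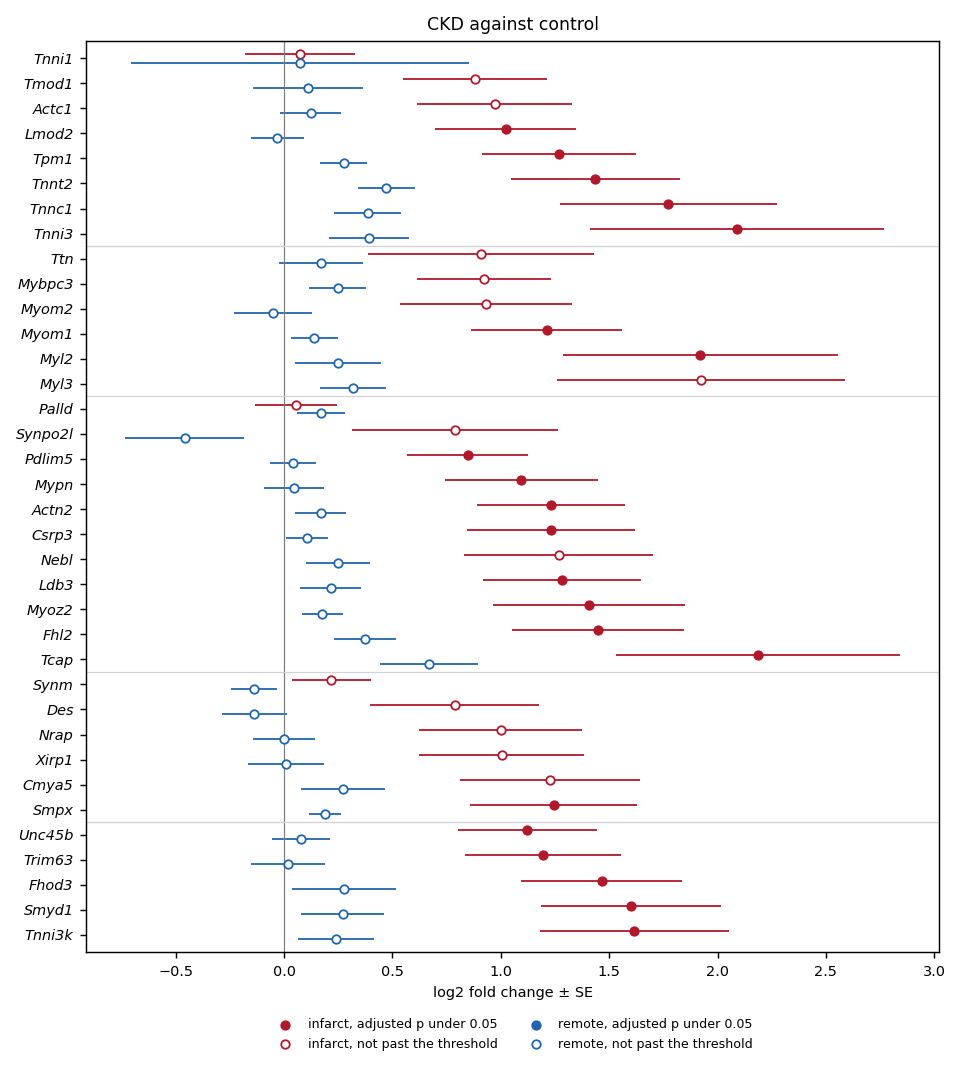
Log2 fold change ± SE of CKD over control for each gene, in infarct tissue (red, upper mark of a pair) and remote myocardium (blue, lower mark), in blocks by role; filled marks passed the adjusted p of 0.05. All 36 infarct values are above 0, from 0.05 (Palld) to 2.19 (Tcap), and remote values run from -0.46 (Synpo2l) to 0.67 (Tcap).

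These calls rested on few libraries, although the direction did not. The lowest adjusted p of any gene was 0.0345, and no gene of the 36 passed without the infarct of CKD mouse 9172 or 9177 or of control mouse 9171, 9182 or 9183. In each of these fits 0 of all genes passed as well. There 29 or 30 of the 36 kept an unadjusted p under 0.05, and their median stayed between 1.02 and 1.27. The count was 7 without CKD mouse 9179 (11.5% of all genes passed), 8 without 9176 (12.2%) and 13 without control mouse 9184 (15.1%). In the main fit 20.3% of all genes passed. Without both CKD mice 9172 and 9179, 0 of 36 and 0 of all 14515 genes passed (4064 at an unadjusted p under 0.05), yet all 36 stayed positive with a median of 0.997. The summed fibroblast and scar markers had a median of 13518 CPM in CKD and 28390 CPM in control infarcts, with overlapping ranges, and the mean heart muscle score was higher in CKD infarcts, at the values given above; with that score in the model 0 of 36 and 0 of all genes passed (549 at an unadjusted p under 0.05), and the median was 0.17. The 12 score genes themselves had a median log2 fold change of 1.62 between infarcts. That fit therefore cannot separate the share of muscle from the RNA per muscle cell. How much of the difference follows the share of muscle in each piece was not tested.

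The third question was whether CKD changes these genes in myocardium away from the infarct. No gene of the 36 passed in remote myocardium (edgeR, 13902 genes), where 0% of all genes were higher and 0.0216% lower. Before adjustment 6 of the 36 genes had a p under 0.05, against 11.7% of all, and DESeq2 called 1, Tnnt2 (0.48, adjusted p = 0.0193), beside 0.698% of all genes. The fold changes were positive in 30 and negative in 6 genes, with a median of 0.17, where that of all genes was near 0 and their quartiles were -0.15 and 0.10. Tnnt2 had 12095 to 17455 CPM (median 15437) in CKD and 8317 to 13103 CPM (median 11243) in control remote myocardium, overlapping ranges, at 0.47 ± 0.13 (adjusted p = 0.272). Tcap had 2110.4 to 3835 CPM (median 2975) in CKD and 1001 to 2609.7 CPM (median 1818) in control remote libraries, at 0.67 ± 0.22 (adjusted p = 0.309). The ranges of all 36 genes overlapped, where 0.129% of all genes were higher and 0.122% lower without overlap.

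The remaining genes of the same roles differed by less. Tpm1 was at 0.28 ± 0.11 (adjusted p = 0.357), Fhl2 at 0.37 ± 0.14 (adjusted p = 0.344), Myl3 at 0.32 ± 0.15 (adjusted p = 0.433), Smpx at 0.19 ± 0.07 (adjusted p = 0.359) and Tnni3k at 0.24 ± 0.18 (adjusted p = 0.609). On the negative side were Synpo2l at -0.46 ± 0.28 (adjusted p = 0.534), Synm at -0.14 ± 0.11, Des at -0.14 ± 0.15, Myom2 at -0.05 ± 0.18, Lmod2 at -0.03 ± 0.12 and Nrap close to 0. The median was 0.10 without the remote library of control mouse 9180, in which 6 of the 36 genes stood far from the other control remote libraries, and 0.15 with mouse 9179 counted as control or 0.19 without its remote library, with 0 of 36 genes called in each of these fits.

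The CKD effect was larger in the infarct than in remote myocardium for 35 of 36 genes, but no gene passed the test of that difference, and none of all 14770 genes did. The median difference was 1.07, where that of all genes was 0.06, and 31 of 36 genes had an unadjusted p under 0.05, against 18.9% of all. DESeq2 called 15 of the 36 higher, and 600 of all 14770 genes (4.06%) in either direction. The smallest adjusted p, 0.165, was shared by 11 genes, among them Lmod2 (1.07 ± 0.35), Actn2 (1.08 ± 0.36), Myom1 (1.09 ± 0.36), Unc45b (1.07 ± 0.36) and Trim63 (1.20 ± 0.40). Tnni3 stood at 1.74 ± 0.69 (adjusted p = 0.185), and the 1 negative value was that of Palld, -0.11 ± 0.21 (adjusted p = 0.838).

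Other sarcomere genes, a list of 44 that does not include the 36, gave these counts. In CKD over control infarcts 18 of 43 tested were higher and 2 lower, against 13.1% and 7.14% of all genes. The 2 lower were Csrp1, a LIM protein of smooth muscle (-0.74 ± 0.22, adjusted p = 0.0368), and Tmod2, a tropomodulin of nerve cells (-0.57 ± 0.18, adjusted p = 0.0424). Myot, myotilin, and Tnnt1, slow skeletal troponin T, had the smallest p there, at 2.05 and 1.39 (adjusted p = 0.0345 for both). In infarct over remote tissue 4 of 44 were higher and 8 lower in CKD hearts, against 24.7% and 20.2% of all genes. In control hearts 4 were higher and 32 lower, against 30.7% and 33.2% of all genes. Obsl1 (-0.44) and Pdlim3 (0.93) had the smallest p in CKD hearts, while Tmod4 (-2.50) and Trim54 (-1.91) had the smallest p in controls. The actinin-binding genes Pdlim3 and Pdlim7 were higher in infarcts of both diets. No gene of the list passed in CKD over control remote myocardium, where Tnnt1 (0.67) and Hspb7 (0.30) had the smallest p, or in the difference of the effects, where Hspb8 and Bag3 did.

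Genes of smooth muscle, fast skeletal muscle and atrial muscle were read as markers of other cells that share some of these proteins. The smooth muscle list (Myh11, Acta2, Tagln, Cnn1 and Smtn, 5 of 5 found) summed to 323 to 610 CPM in CKD infarcts, 534 to 1180 CPM in control infarcts, 365 to 624 CPM in CKD remote and 374 to 752 CPM in control remote libraries. Its members went both ways in infarct over remote tissue, with 2 higher and 2 lower in CKD hearts (median 0.63) and 3 higher and 1 lower in control hearts (median 1.18). The fast skeletal list (8 of 8 found) summed to at most 29.2 CPM in any library, with Myh1, Myh2, Myh4 and Tnnc2 at no more than 0.33 CPM. The atrial list (5 of 5 found) had 296 to 4191 CPM in CKD infarcts, 370 to 2289 CPM in control infarcts, 44.7 to 1135 CPM in CKD remote and 41.8 to 1882 CPM in control remote libraries, a sum carried by Nppa in control infarcts, where Bmp10 was at 0. Of its 4 genes tested in infarct over remote tissue, Nppa was higher in CKD hearts (3.55 ± 0.72) and none was lower. The list median there was -1.20, opposite in sign to Nppa. In control hearts Myl4, Myl7 and Sln were lower (list median -5.65). In CKD over control infarcts 1 of 3 was higher, Myl7 at 6.03 ± 1.80 (list median 3.14). Myl7 had 0.44 to 208 CPM in CKD infarcts, 0.15 to 0.90 CPM in control infarcts, 0.13 to 356 CPM in CKD remote and 0.51 to 257 CPM in control remote libraries, so its level differed widely within groups. The part of these cells in the results was not tested.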

How the data were processed

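RNA was extracted with a column kit from snap-frozen infarct tissue and remote myocardium and sequenced in 27 bulk libraries, per the labels' protocols; strandedness is not given in the sources used here. The deposited table holds whole-number counts per gene, per the values in it. The submitters' processing notes name kallisto 0.48.0 and GRCm39; how transcript estimates became counts per gene is not given; reads shared by related genes may have been split between them. Totals were 14255456 to 42566498 counts, and 21658 genes had a count.

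After filterByExpr and TMM scaling, edgeR 4.0.16 (R 4.3.3) fitted a quasi-likelihood model, whose F test p-values were Benjamini-Hochberg adjusted over all tested genes at 0.05. CKD was compared with control within a region from that region's libraries; the difference of effects and infarct over remote came from all 27 libraries with 4 group means. SE is the fold change divided by the root of F. Log2 CPM used a prior count of 2. The genes, lists and tests were chosen with earlier results of these data known. Full statistics go to up to 2 genes of smallest p per role and comparison, to those against their role's direction, and to others picked afterwards. The labels do not say more on how samples were taken. The p-values of these fits measure the spread between libraries, which holds differences between mice and between the pieces cut from them. The fit of 27 libraries with 4 group means treated the 2 libraries of a mouse as independent.

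Alternatives were DESeq2 1.42.0 and limma-voom 3.58.1 (sample weights), the size factors of DESeq2 in edgeR, keeping every gene or only those of mean CPM above 1, fitting 27 libraries together, the heart muscle score as a covariate, mouse as a block, other handling of mice 9179, 9180 and 9172, and leaving out each library. The 2 regions of a mouse form a pair; over 13 such pairs deviations from the group means correlated at -0.102 to 0.397 (median 0.172; other mice -0.0196). No 2 libraries of a group were duplicates (lowest chi-square per degree of freedom 9.52 over 79 pairs). The fits were also run on simulated counts, drawn independently for each library and gene. Those counts held no pairing of regions and no shared muscle content, so they do not test the fits under either.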

Additional observations from a re-analysis of the deposited data

Results flagged for a closer look

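In 10 of 148 sets of values (36 genes and the ratio in 4 groups), 1 library lay farther from its nearest neighbour than Dixon's 95% limit allows, where chance flags about 1 in 20. Of these, 6 were in the remote library of control mouse 9180. It was lowest of its group for Tpm1 (13.16 log2 CPM), Myom2 (9.13), Cmya5 (7.06), Trim63 (6.67) and Tnni3k (5.66), and highest for Des (12.25). The infarct library of control mouse 9171 was lowest for Tnnt2 (10.25) and Mybpc3 (9.21). The remote library of CKD mouse 9177 was highest for Lmod2 (9.22), and the infarct library of CKD mouse 9176 was highest for Synpo2l (9.45).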

How the results depend on the processing

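Of 342 counts and ratios recomputed, 283 were scored as unchanged. For a count this means equal to the main count or within 1.5 times of it, which includes 0 that stayed 0. For the ratio it means the same direction and the same side of the threshold. The number of genes higher in CKD than in control infarcts was 21 (20.3% of all genes passed in either direction). It was 30 with DESeq2 (31.7%) and 31 with all 27 libraries fitted together (34.3%). It was 11 with limma-voom (16.5%) and 13 with no filter on low counts (9.26%). It was 0 with the heart muscle score as a covariate (0%) and 0 without CKD mice 9172 and 9179 (0%). When single libraries were left out it was 0 to 29 (0% to 32.6%). In remote myocardium DESeq2 called 1 (0.698% of all genes passed), and for the difference of effects 15 (4.06%). In infarct over remote tissue of CKD hearts 45% of all genes passed in the main fit. There 1 higher became 0 with the covariate, 2 without mice 9172 and 9179 and 0 to 1 without single libraries. The 4 lower became 9 with DESeq2 (48.5% of all genes passed), 24 with limma-voom (60.2%) and 0 with the covariate (14.3%). They became 18 without mice 9172 and 9179 (60.4%) and 1 to 14 without single libraries (33.8% to 56.9%). With mouse as a replicate block they became 9 (48.8%), and that block changed no other count by over 1.5 times. In control hearts 32 lower became 0 with the covariate, where 0% of all genes passed, against 63.9% in the main fit. The score did not overlap between the regions of control hearts, so the covariate fit separates region from score poorly there.

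Signs turned mostly where the covariate was fitted. In CKD over control infarcts it gave Myl2 -0.11, Cmya5 -0.13, Tnni3 -0.12, Synm -0.21, Ttn -0.67 and Myl3 -0.17; for the difference of effects Myl2 -0.089 and Tnni3 -0.25; in infarct over remote tissue of CKD hearts Myl3 0.11, Tnnt2 0.061, Synm 0.19 and Myl2 0.065; and in control hearts Myl2 0.15, Cmya5 0.34, Tnni3 0.086, Tcap 0.049, Myl3 0.23, Des 0.034, Ttn 0.63, Synm 0.25 and Mybpc3 0.081. With limma-voom the values were Synpo2l 7.0e-04 (remote), Palld -0.086 (infarcts), Tnni1 -0.66 (difference), Palld -0.10 and Tnni1 0.23 (CKD regions), and Des 0.21, Tnni1 0.89 and Synpo2l 0.070 (control regions). With the paired replicate block they were Tnni1 -0.14 (difference), Palld -0.044 and Tnni1 0.21 (CKD regions) and Tnni1 0.35 (control regions). The difference for Tnni1 was -0.0069 with DESeq2, -0.29 with mouse 9179 as control and -0.13 without its remote library, and Des in control regions was 0.066 without the remote library of mouse 9180. The causes were not tested. Without single libraries, values crossed 0 for remote Lmod2 (-0.11 to 0.045) and Myom2 (-0.18 to 0.016), infarct Palld (-0.082 to 0.14) and Tnni1 (-0.047 to 0.19), the difference for Tnni1 (-0.53 to 0.46), CKD regions Palld (-0.11 to 0.080) and Tnni1 (-0.41 to 0.23), and control regions Des (-0.39 to 0.066) and Tnni1 (-0.45 to 0.33). The ratio of Tnni1 to Tnni3 ran from -2.47 to -1.62 in infarcts, 1.62 to 2.22 in CKD hearts, -2.58 to -1.49 for the difference, -0.75 to 0.28 in remote myocardium and 3.47 to 4.56 in control hearts, where 5 hearts cannot reach the threshold.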
